A study of Rattus norvegicus with 2 samples.

Results

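Neuronal barcodes with a high mitochondrial share were examined in single-cell RNA sequencing of the rat hypothalamus. A barcode marks the RNA captured in 1 droplet, and a unique molecular identifier (UMI) marks each captured RNA molecule, so counts of UMIs are counts of molecules. The barcodes were selected on their own measured values: at least 200 detected genes, more than 35% of UMIs in the genes whose names start with Mt-, and at least 3 of the 6 neuronal markers *Snap25*, *Syt1*, *Snhg11*, *Celf4*, *Rbfox3* and *Grin1* detected. They numbered 79 in Control and 84 in SC300, 163 in all, of the 8675 barcodes with 200 genes and the 9012 deposited. Neuronal barcodes chosen by the same markers but with at most 30% of UMIs in Mt- genes, 373 in Control and 351 in SC300, are called reference barcodes here.

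Hypothalamic tissue with the anteroventral periventricular nucleus (AVPV) and the arcuate nucleus (ARC) came from female Sprague Dawley rats at PND 29, 4 weeks of age. SC300 rats had received estradiol benzoate (EB), an ester of estradiol, at 300 µg in a Silastic (silicone) capsule at PND 0.5. Control rats received an oil capsule in the methods but are labelled intact, and both groups were otherwise of the same strain and sex. Each library was made from the pooled hypothalami of 3 rats, with 52004789 UMIs deposited for Control and 57013099 for SC300. The study asked which hypothalamic genes and cells differ after neonatal EB. How much single rats vary cannot be seen from 2 pools, so no test was made. All intervals are exact 95% intervals that cover counting error only.

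Neurons keep many mitochondria in the cell body, axon and synapses. The mitochondrial genome encodes a few subunits of the respiratory chain, and its transcripts are made and stay inside the organelle. The other subunits, and nearly all other proteins of a neuron, are read from nuclear genes whose mRNAs are spliced in the nucleus and exported to the cytoplasm. A droplet's mitochondrial share therefore sets one compartment's RNA against all the rest, and in single-cell work it is widely used as a sign of the state of a cell at capture. The methods state a viability above 90% by Trypan Blue before loading and a minimum of 200 genes, and name no limit on the mitochondrial share.

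The members made up 17.0% (13.7 to 20.7) of the 466 neuronal barcodes of Control and 18.7% (15.2 to 22.6) of the 449 of SC300. Their share of all barcodes above 35% was 26.9% in Control and 21.2% in SC300. The shares of neuronal barcodes had overlapping counting intervals. A doublet caller marked 0 of 79 and 0 of 84 members (up to 4.56% and 4.30%), against 12 of 373 and 14 of 351 reference barcodes. The libraries shared 9 deposited barcode sequences, and 0 members were among them.

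The label names *Snhg11*, a long noncoding RNA gene, *Grin1*, the obligatory subunit of NMDA receptors, *Clstn3*, the synaptic adhesion protein calsyntenin 3, and *Kifc2*, a kinesin motor. *Grin1* was detected in 69 of 79 Control members, with a median of 3 UMIs, and *Snhg11* in 66. *Clstn3*, which the rule did not use, was detected in 70 of 79 Control members with a median of 6 UMIs, and *Kifc2* in 51. Both were named in the label with earlier results of these data known, so their levels and shares here and below are a description only. *Celf4* was near absent, with 1 UMI in the members of each library, and *Rbfox3*, the gene of the neuronal nuclear protein NeuN, was found in 18 of the 79. Most Control members met the rule with 3 markers (39 barcodes) or 4 (32), and 8 had 5. Set against marker lists of 10 other cell types, more markers of the rule than of any other list were detected in 67 of 79 Control and 70 of 84 SC300 members, a count that the selection itself raises. The 12 neuronal markers outside the rule summed to 4361 and 4312 UMIs per 1000000 UMIs outside the mitochondrial genome in Control and SC300 members. The reference barcodes held 6791 and 6724 on this scale. Barcodes with fewer than 3 markers of the rule held 1636 and 2390 at a high mitochondrial share and 371 and 409 at a low one.

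What set the members apart from the reference barcodes was the number of UMIs outside the mitochondrial genome, called nuclear UMIs here, and not the number inside it. Members had a median of 3521 Mt- UMIs for Control and 3893 for SC300, against 3405 and 3695 in reference barcodes. Nuclear UMIs had a median of 3178 in Control members and 3373.5 in SC300 members, against 25491 and 25804 in the reference, which was 8.02-fold and 7.65-fold more. Detected genes followed, with medians of 1875 and 1904 against 5238 and 5261. Mitochondrial shares of members ran from 35.1% to 81.6% in Control (median 48.2%) and from 35.5% to 76.8% in SC300 (median 51.2%). As the rule sets the ratio of these numbers, this is a description of how the selected barcodes came by their share.

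**Figure D1:**
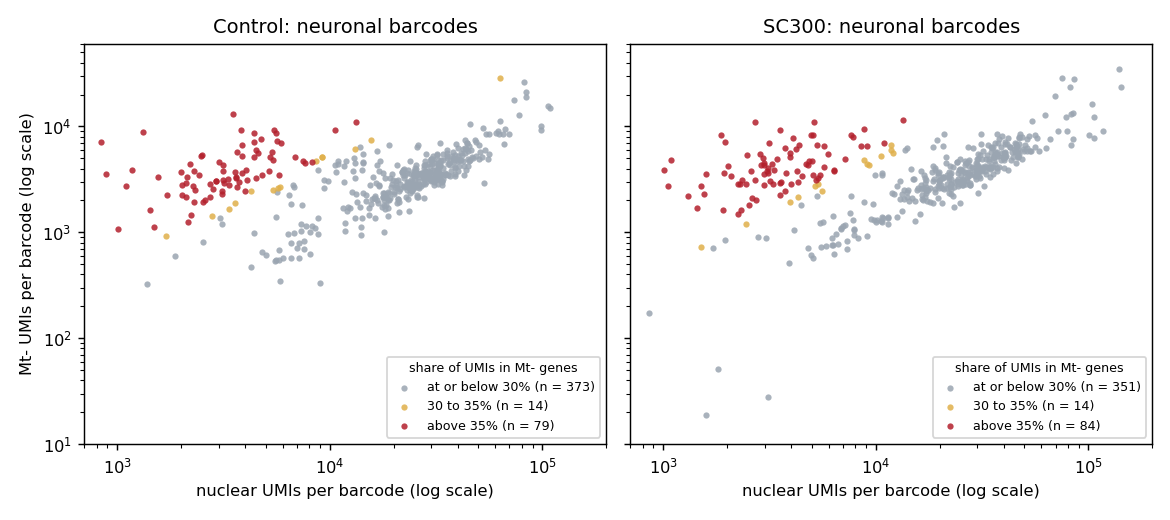
Nuclear UMIs (x axis, log scale) and Mt- UMIs (y axis, log scale) of each neuronal barcode in Control and SC300, with 1 point per barcode. Members lie to the left of the reference barcodes at a like height, with median Mt- UMIs of 3521 against 3405 in Control and 3893 against 3695 in SC300.

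No gap in the data marked the 35% threshold. Just outside it, between 30 and 35%, lay 14 neuronal barcodes in each library, with median nuclear UMIs of 5777 in Control and 7199.5 in SC300. Just inside it, between 35 and 40%, lay 8 and 13 barcodes with medians of 4885 and 5071. Between 25 and 30% the medians were 10975 (17 barcodes) and 13712 (11 barcodes). Nuclear UMIs thus declined from bin to bin in both libraries, over bins of under 20 barcodes.

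The mixture of mitochondrial mRNAs was nearly the same in members and reference. *Mt-atp6*, a subunit of ATP synthase, held 19.3% of Mt- UMIs in Control members and 19.5% in SC300 members, against 18.7% and 18.8% in the reference. *Mt-co2*, *Mt-co3* and *Mt-co1* encode subunits of cytochrome c oxidase. *Mt-co2* held 17.1% and 16.2% against 17.6% and 17.1%, and *Mt-co3* 16.4% and 17.1% against 15.6% and 16.3%. *Mt-cyb*, cytochrome b, held 12.2% and 11.9% against 12.6% and 12.5%. The largest log2 ratio among the 13 Mt- genes was that of *Mt-nd4l*, a small complex I subunit, at -0.49 in Control and -0.41 in SC300.

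Another 24 rows lie among the Mt- rows of the files and carry the name of the mitochondrial genome's sequence record. All their UMIs in the members fell on *AY172581.9* and *AY172581.24*, whose products the files do not name. Per 100 Mt- UMIs, these rows held 10.9 UMIs in Control members and 9.87 in SC300 members, against 6.77 and 6.17 in the reference. Relative to Mt- UMIs *AY172581.24* had a log2 ratio of 0.70 in Control and 0.69 in SC300, and *AY172581.9* of 0.66 and 0.64. These rows were set aside with the Mt- genes, and all levels below are UMIs per 1000000 nuclear UMIs (CPM), summed over the barcodes of a group.

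Of the 7968 genes with at least 100 UMIs in each library, 1711 (21.5%) were over 2-fold higher in members than in reference in both libraries, and 1146 (14.4%) were over 2-fold lower. The interval of the ratio lay off 0 in both libraries for 1650 of the higher and 991 of the lower genes. Across the 7968 genes the log2 ratios of the 2 libraries had a Pearson correlation of 0.835 (0.888 over the 1947 genes with 1000 UMIs), which is a description across genes that are not independent replicates, in 2 libraries from 1 sequencing run. The members were chosen by their values, so these counts describe the selection. The split depended on the scaling. Scaled to all UMIs, mitochondrial ones included, 327 genes were higher and 2790 lower, and with the median of ratios 560 and 2280. That median was taken over genes with at least 20 UMIs in the members, a filter that favours genes high in members. It therefore lowers the ratios further than the median of the 7968 genes would, and its counts are tilted to the lower side. On the scale used here, the ratios of all genes had medians of 0.27 for Control and 0.33 for SC300, -0.74 and -0.65 scaled to all UMIs, and -0.45 and -0.41 with the median of ratios. The other scalings lower every ratio by a constant, 1.01 and 0.98 when scaled to all UMIs and 0.72 and 0.74 with the median of ratios, so that a gene with a ratio between 0 and these values turns negative there.

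Few genes held a large part of the members' nuclear UMIs. *AC134224.3* alone had 85691 CPM in Control members and 72447 in SC300 members against 17546 and 14993 in the reference (log2 2.29 and 2.27). *AABR07025316.1*, *AABR07034098.1* and *AABR07000534.1* had log2 ratios of 2.57 and 2.60, 2.49 and 2.50, and 2.87 and 2.91. These 4 genes, picked after their values were seen as the most abundant in the members, are named in the files after sequence contigs only. Together they made up 12.6% of nuclear UMIs in Control members and 10.9% in SC300 members, against 2.42% and 2.08% in the reference. *AC134224.3* was also abundant in barcodes with fewer than 3 markers of the rule. It had 63626 CPM in Control and 63994 in SC300 at a low mitochondrial share, and 52115 and 53219 at a high one. These levels lay between those of the reference and the members. The other contig genes named here were nearer to the reference than to the members in these barcodes.

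The 10 genes with the highest ratios included 3 of the same kind: *AABR07034293.1* (log2 4.29 in Control and 3.85 in SC300), *AC134224.2* (4.08 and 3.86) and *AC134224.1* (3.44 and 3.15). Whether *AC134224.1*, *AC134224.2* and *AC134224.3* share reads was not tested. The other 7 were *Kmt5c*, *Usp40*, *Myo9b*, *Nbeal2*, *P3h3*, *Esyt3* and *Gigyf1*. *Kmt5c*, a histone methyltransferase, had 46 UMIs in Control members and 44 in SC300 members, which was 159 and 133 CPM against 11.6 and 9.58 in the reference (log2 3.78, 3.26 to 4.28, and 3.79, 3.25 to 4.32). *Usp40*, of the ubiquitin-specific peptidases, had log2 ratios of 3.74 and 3.47, and *Myo9b*, an unconventional myosin, of 3.33 and 3.45. *P3h3*, of the prolyl hydroxylases, stood at 471 and 404 CPM against 44.3 and 47.9. The lowest of these log2 ratios was 2.87, of *Esyt3* in SC300, where it had 30 UMIs in members.

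Among the 10 genes with the lowest ratios, hormone precursors and genes with few UMIs in members prevailed. *Oxt*, the oxytocin precursor, had 13 UMIs in Control members (45.0 against 7527 CPM, log2 -7.38) and 3349 in SC300 members (10105 against 20790 CPM, log2 -1.04). In the Control reference 99.85% of its UMIs were in 3 barcodes, and without the 3 top barcodes of each set the levels were 25.1 CPM in members and 11.3 in the reference, so the direction in Control turned (log2 1.15, -0.20 to 2.24). In SC300 1 barcode held 98.6% of the members' UMIs. Without the 3 top barcodes of each set the SC300 log2 ratio was -6.28 (-6.79 to -5.82). *Sst*, somatostatin, had 55 and 56 UMIs, or 191 and 169 CPM against 1763 and 1943 (log2 -3.21 and -3.52). Its direction turned to 1.03 in Control with the AY172581 rows counted in the mitochondrial share, which brought its members' UMIs to 1245, and to 2.36 in SC300 against a reference matched on nuclear UMIs, of 12 Control and 19 SC300 barcodes. Against that reference *Oxt* turned as well, to 0.21 and 7.26. *Npvf*, the precursor of RFamide-related peptides, had 0 UMIs in the members of both libraries against 858 and 2707 in the reference. With 3 UMIs put in for the 0 of each library it was 8.04-fold lower in Control and 28.9-fold lower in SC300. *Vim*, the intermediate filament vimentin of glia and progenitors, had 4 and 2 UMIs in members (log2 -3.71, -5.59 to -2.35, and -3.79, -6.84 to -1.93). *Trappc2b*, of a vesicle tethering complex, also had 4 and 2 UMIs (-2.87 and -3.87). *AABR07029198.1*, *Dynlrb2*, *Ten1*, *Ppcs* and *Mrpl50* had 1 or 2 UMIs in the members of each library, and their ratios are given no further here.

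Gene lists drawn up for neurons, other cell types, mitochondria and stress are described next by the number of their genes past 2-fold in both libraries and by their median log2 ratio. The share of all genes called was 21.5% higher and 14.4% lower, with medians of 0.27 and 0.33.

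**Figure D2:**
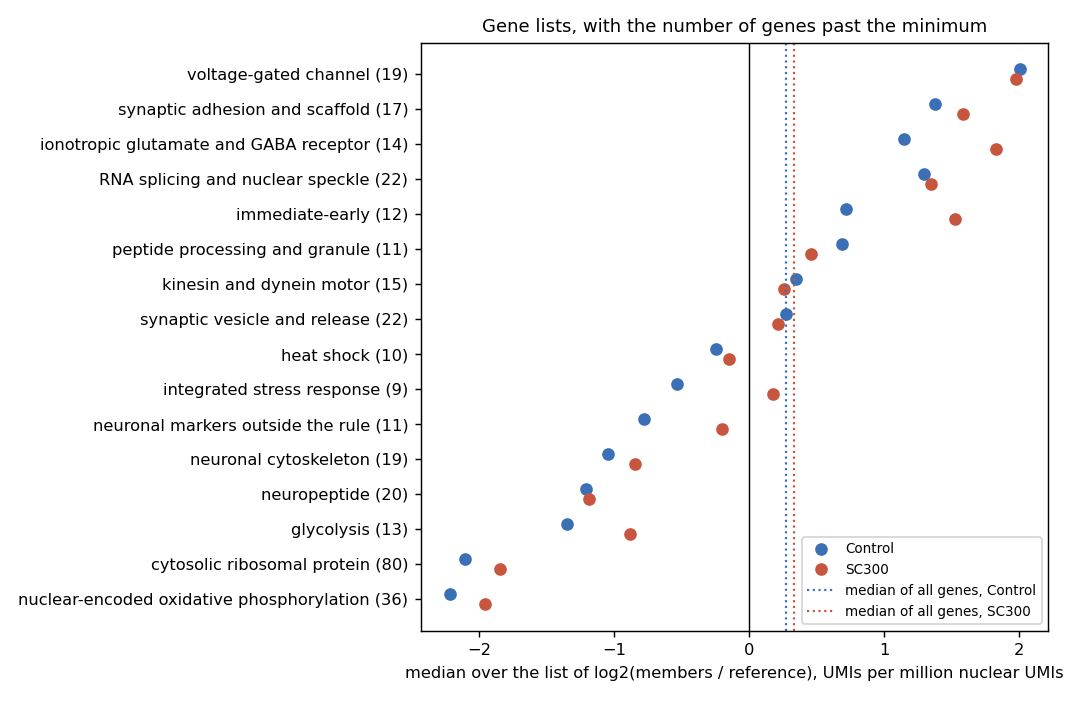
Median log2 ratio of members to reference (x axis, CPM of nuclear UMIs) of the genes of each list (y axis) in Control and SC300, with the medians of all genes tested as lines. Of the lists plotted, oxidative phosphorylation and ribosomal protein genes stand lowest, at -2.22 and -2.11 in Control, and voltage-gated channels highest, at 2.01.

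Nuclear genes for oxidative phosphorylation, the process in which the mitochondrial subunits also work, were lower in members. Of 36 genes past the minimum, 33 were over 2-fold lower and 0 higher, with medians of -2.22 in Control and -1.96 in SC300, equal to 4.66-fold and 3.88-fold lower levels. *Cox4i1*, a subunit of cytochrome c oxidase, had 876 and 842 CPM in members against 2177 and 2171 in the reference (log2 -1.31, -1.50 to -1.13, and -1.37, -1.54 to -1.20). *Ndufa4*, a subunit of the same complex, had log2 ratios of -2.15 and -1.85, *Cox6c* of -2.03 and -1.90, and *Cox8a* of -2.27 and -1.88. Barcode by barcode, the list held a median of 0.574% of nuclear UMIs in Control members and 0.546% in SC300 members, against 3.57% and 3.43% in the reference. In 74 of 79 and 77 of 84 members the share was below the lower quartile of the reference. Members thus had about as many Mt- UMIs as reference barcodes and a smaller part of their nuclear UMIs in genes of the same respiratory complexes.

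Cytosolic ribosomal protein genes, the structural proteins of the translating ribosome, were lower in the same way. Of 80 genes past the minimum that matched the name pattern Rpl or Rps, 68 were over 2-fold lower, with medians of -2.11 and -1.84. The 4 that were higher, *Rps6kb2*, *Rps6ka5*, *Rps6kc1* and *Rps6kb1*, encode kinases and not ribosomal proteins. *Rpl41* had 790 and 1041 CPM in members against 3203 and 3114 (log2 -2.02 and -1.58), *Rpl37a* had log2 ratios of -1.94 and -1.37, and *Rpl19* of -2.07 and -1.94. Ribosomal protein genes have many near-identical copies in the genome, and reads of single members may have been split or dropped. In 75 of 79 and 75 of 84 members, the list's share of nuclear UMIs was below the reference's lower quartile.

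Glycolysis genes, which break glucose down in the cytosol, had 6 of 13 lower and 0 higher, with medians of -1.35 and -0.88. *Aldoa*, aldolase, had 551 and 498 CPM in members against 1666 and 1533 (log2 -1.60 and -1.62), and *Pgam1*, phosphoglycerate mutase, had log2 ratios of -1.35 and -1.64. *Ldha*, lactate dehydrogenase, at -0.91 and -0.88 did not pass 2-fold. *Gpi*, glucose-6-phosphate isomerase, went the other way at 0.51 and 0.65, a direction that turns under both other scalings.

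Genes of the neuronal cytoskeleton had 7 of 19 lower and 1 higher, with medians of -1.04 and -0.84. The lower genes encode tubulins, stathmins and actin. *Tuba1a*, an alpha tubulin, had 960 and 1044 CPM against 2728 and 2612 (log2 -1.51 and -1.32), and *Stmn3*, a stathmin that binds tubulin, 977 and 1101 against 2937 and 2884 (-1.59 and -1.39). *Map2*, a microtubule-associated protein of dendrites, was the 1 higher gene, at 807 and 818 CPM against 315 and 337 (log2 1.36 and 1.28). *Map1b*, a like protein of axons, stood at 0.61 and 0.42.

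Voltage-gated channel genes, which carry the sodium, calcium and potassium currents of the action potential, were higher in members. Of 19 genes past the minimum, 13 were over 2-fold higher and 0 lower, with medians of 2.01 and 1.98, equal to 4.02-fold and 3.93-fold higher levels. *Scn2a*, a sodium channel, had 852 and 1002 CPM in members against 342 and 328 in the reference (log2 1.32, 1.13 to 1.51, and 1.61, 1.44 to 1.77). *Kcnc1*, a potassium channel of fast-spiking neurons, had log2 ratios of 2.22 and 2.14. *Cacna1a*, the pore of P/Q-type calcium channels, had 284 and 299 CPM against 51.0 and 58.3 (2.48 and 2.36). The list's share of nuclear UMIs was above the upper quartile of the reference in 76 of 79 Control and 75 of 84 SC300 members.

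Ionotropic glutamate and GABA receptor genes had 10 of 14 higher and 0 lower, with medians of 1.14 and 1.83. *Gria2*, the AMPA receptor subunit that limits calcium entry, had 1718 and 1792 CPM in members against 502 and 491 (log2 1.78 and 1.87). *Grin1* had 814 and 742 CPM against 159 and 165 (2.36 and 2.17), as a marker of the rule. *Grik5*, a kainate receptor subunit, had log2 ratios of 2.21 and 2.05, and *Grin2b*, an NMDA receptor subunit, of 1.10 and 1.01.

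Synaptic adhesion and scaffold genes had 13 of 17 higher and 0 lower, with medians of 1.38 and 1.59. *Clstn3* had 1902 and 1708 CPM in members against 351 and 325 in the reference (log2 2.44, 2.30 to 2.57, and 2.39, 2.26 to 2.52), equal to 5.41-fold and 5.25-fold higher levels. Its relative *Clstn1* had log2 ratios of 1.07 and 1.23. *Nrxn2*, a neurexin of the presynaptic membrane, had 817 and 748 CPM against 228 and 230 (1.84 and 1.70).

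RNA splicing and nuclear speckle genes had 13 of 22 higher and 0 lower, with medians of 1.30 and 1.35. *Luc7l3*, a splicing factor of the U1 particle, had 2113 and 1801 CPM in members against 342 and 324 (log2 2.63 and 2.48). *Pnisr*, a speckle protein, had 1379 and 1304 CPM against 244 and 232 (2.50 and 2.49), and *Srsf1*, an SR splicing factor, had log2 ratios of 1.92 and 2.05. *Ddx5*, an RNA helicase, did not pass 2-fold at 0.66 and 0.87. Among nuclear-retained long noncoding RNAs 1 of 13 listed names was matched in the files, *Snhg11*, a marker of the rule, with 1237 and 1198 CPM in members against 231 and 217 (log2 2.42 and 2.46). The other names were not analysed here.

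The medians of the channel, receptor, adhesion and splicing lists stayed above 0 in both libraries when scaled to all UMIs (0.99 and 0.99, 0.13 and 0.84, 0.37 and 0.60, and 0.29 and 0.36). Those of the oxidative phosphorylation and ribosomal lists stayed below it.

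Synaptic vesicle genes had 4 of 22 higher and 4 lower, shares near the 21.5% and 14.4% of all genes, and the medians of 0.27 and 0.21 turned to -0.74 and -0.77 when scaled to all UMIs and to -0.45 and -0.53 with the median of ratios. *Sv2a*, a vesicle glycoprotein, was higher at 1112 and 1325 CPM against 363 and 356 (log2 1.61 and 1.90), and so was *Syt1*, the calcium sensor of release and a marker of the rule, at 696 and 887 against 331 and 331 (1.07 and 1.42). *Syt4*, a further synaptotagmin, had 1.00 and 1.17, which when scaled to all UMIs became -0.0069 in Control. *Vamp2* and *Rab3a*, a SNARE protein and a small GTPase of the vesicle, were lower at -1.11 and -1.19 and at -2.38 and -2.44, but against the reference matched on nuclear UMIs *Vamp2* stood at -0.51 and 0.083. *Snap25*, the SNARE partner of *Vamp2* and a marker of the rule, had 1057 and 923 CPM against 1159 and 1112 (-0.13 and -0.27).

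Motor protein genes had 3 of 15 higher and 1 lower, with medians of 0.34 and 0.26 that were -0.67 and -0.73 when scaled to all UMIs and -0.37 and -0.48 with the median of ratios. *Kifc2* had 468 and 492 CPM in members against 58.5 and 61.9 (log2 3.00, 2.72 to 3.27, and 2.99, 2.73 to 3.24). *Kif1b*, a carrier of mitochondria and vesicles along axons, had log2 ratios of 1.34 and 1.38. *Kif5a* at 1.19 and 0.89, *Klc1* at 0.65 and 0.26 and *Kif5c* at 0.38 and 0.60 did not pass 2-fold in both libraries.

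Neuronal markers outside the rule had 2 of 11 higher and 2 lower, also near the shares of all genes, with medians of -0.78 and -0.21. *Uchl1*, a neuronal deubiquitinase, had 960 and 914 CPM against 1814 and 1695 (log2 -0.92 and -0.89), and *Tubb3*, the neuronal beta tubulin, was lower at -1.38 and -1.62 (-0.39 and 0.30 against the matched reference). *Stmn2* stood at -1.08 and -0.84, and *Map2* was higher, as given with the cytoskeleton.

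Stress lists showed no common direction. Heat shock genes had 2 of 10 higher and 3 lower, with medians of -0.25 and -0.15. *Hspa8*, the constitutive cytosolic chaperone, was lower at 734 and 830 CPM against 2099 and 2096 (log2 -1.51 and -1.34), while *Hspa1b*, its stress-induced relative, was higher at 1.41 and 1.66. *Hspa5*, the chaperone of the endoplasmic reticulum, had 0.73 and 1.32. Integrated stress response genes had 0 of 9 higher and 1 lower, with medians of -0.53 and 0.18, and *Atf4*, their main transcription factor, stood at 0.41 and 0.21. Apoptosis genes had 0 of 4 higher and 1 lower, and *Bax*, a gene that permeabilises the outer mitochondrial membrane, had 44 and 41 UMIs with intervals that held 0 (log2 0.17, -0.29 to 0.61, and -0.14, -0.63 to 0.31).

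Immediate-early genes, which neurons and other cells switch on within minutes of a stimulus, had 3 of 12 higher and 0 lower. Their median was 0.72 in Control and 1.52 in SC300, and in Control it turned to -0.29 when scaled to all UMIs. *Fosb* had 762 and 1126 CPM in members against 134 and 157 (log2 2.50 and 2.84), and *Fos* 842 and 1017 against 405 and 332 (1.05 and 1.61, and -0.74 in Control against the matched reference). *Egr1* had 0.86 and 1.97, and *Btg2* 0.84 and 2.21, both past 2-fold in SC300 alone, and the difference between the libraries was not tested. Per barcode the list took a median of 0.197% and 0.104% of nuclear UMIs in members and 0.118% and 0.0720% in the reference, with 32 of 79 and 36 of 84 members above the reference's upper quartile and 18 and 24 below its lower quartile.

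The summed levels of some of these lists moved with the mitochondrial share across all neuronal barcodes. For oxidative phosphorylation genes the Control levels were 35743 CPM at 0 to 10%, 37878 at 10 to 20%, 19836 at 20 to 30%, 13996 at 30 to 35%, 10156 at 35 to 50% and 5376 at 50 to 65%. SC300 gave 33228, 36684, 25966, 12341, 11286 and 7247 CPM in the same bins. The decline began below the threshold of the rule and was not a step at 35%. Above 65%, where 7 and 9 barcodes remained, the levels were 9558 and 9577 CPM. Channel genes went from 1025 CPM at 0 to 10% to 3684 at 50 to 65% in Control, and from 1010 to 4110 in SC300. Synaptic vesicle genes showed no such course, with 7102 CPM at 0 to 10% and 7500 at 50 to 65% in Control and 7489 and 7532 in SC300, and a highest level of 11577 at 30 to 35% in Control. The bins at 30 to 35% held 14 barcodes in each library.

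**Figure D3:**
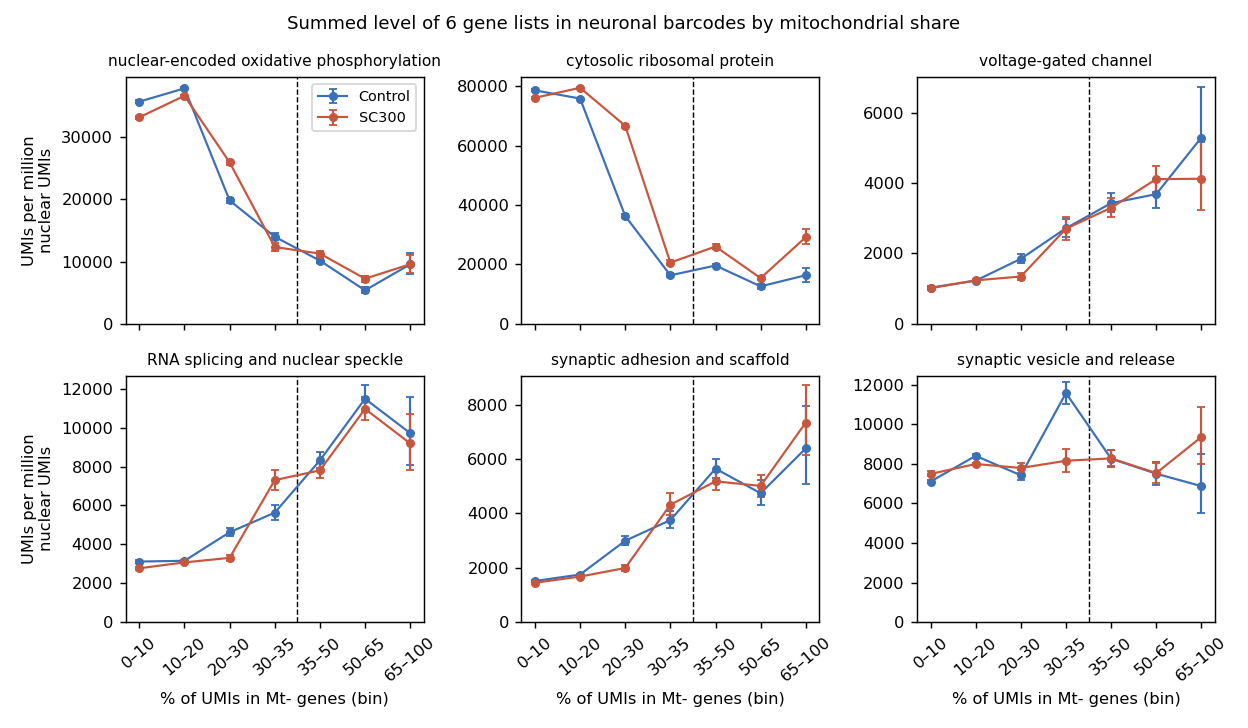
Summed level of 6 gene lists (y axis, CPM of nuclear UMIs) in neuronal barcodes binned by mitochondrial share (x axis, percent), Control and SC300 as separate lines. Oxidative phosphorylation genes went from 37878 CPM at 10 to 20% to 5376 at 50 to 65% in Control, while channel genes were at 1225 and 3684.

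To compare detection at 1 depth, each barcode was thinned to 2000 nuclear UMIs, which left 68 Control and 72 SC300 members (11 and 12 were shallower), 371 and 346 reference barcodes, and, as background, 440 and 445 barcodes led by microglia markers. Before thinning, median nuclear UMIs were 6336 and 6760 in the microglia-led barcodes. *Clstn3* was found in 65 of 68 and 61 of 72 thinned members, against 172 of 371 and 146 of 346 reference barcodes and 3 of 440 and 5 of 445 microglia-led ones. *Kifc2* was found in 35 of 68 and 42 of 72, against 30 of 371 and 35 of 346. As markers of the label, chosen with these data known, *Clstn3* and *Kifc2* only describe the members. Markers of the rule are likewise given as a description only, since shallow members had to show 3 of them to be chosen. *Snhg11* was found in 57 of 68 and 56 of 72, against 141 of 371 and 118 of 346, with 0 of 440 and 0 of 445 in the background. *Rbfox3* was found in 6 of 68 and 6 of 72 against 61 of 371 and 58 of 346, with intervals that overlapped. Unthinned, *Clstn3* had been detected in 70 of 79 Control members and 352 of 373 Control reference barcodes, so the order of the shares in Control turned with the depth.

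Members held both main transmitter classes of the hypothalamus. A marker of GABA synthesis or vesicle loading (*Gad1*, *Gad2* or *Slc32a1*) was found in 38 of the 68 thinned members of Control and 40 of the 72 of SC300, against 228 of 371 and 197 of 346 reference barcodes and 10 of 440 and 13 of 445 microglia-led ones. A vesicular glutamate transporter (*Slc17a6*, *Slc17a7* or *Slc17a8*) was found in 24 of 68 members in Control (35.3%, 24.1 to 47.8) against 51 of 371 (13.7%, 10.4 to 17.7), and in 16 of 72 in SC300 (22.2%, 13.3 to 33.6) against 66 of 346 (19.1%, 15.1 to 23.6). The counting intervals lay apart in Control and overlapped in SC300. *Slc17a6*, the main transporter of this family in the hypothalamus, had summed levels of 412 and 266 CPM against 129 and 151 (log2 1.67 and 0.82). GABAergic genes had 0 of 4 past 2-fold in either direction. *Gad2* stood at -0.50 in Control and 0.15 in SC300, *Gad1* at -0.51 and -0.25, and *Slc32a1* at -0.52 and 0.24.

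**Figure D4:**
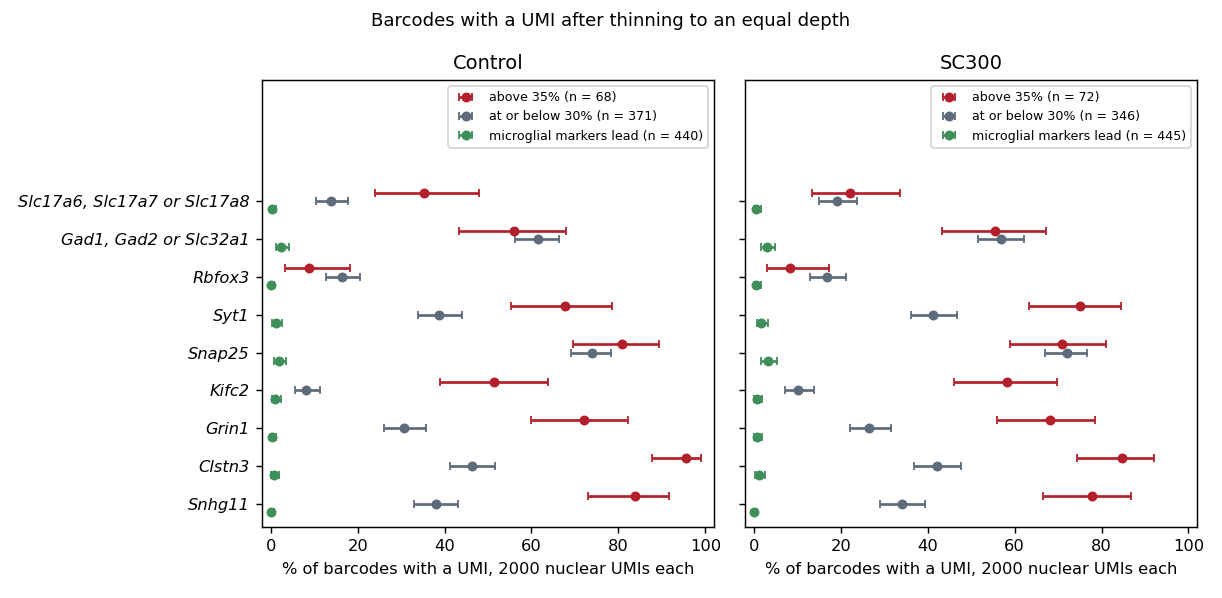
Percent of barcodes with a UMI after thinning to 2000 nuclear UMIs (x axis) for marker genes (y axis) in members, reference and microglia-led barcodes of Control and SC300, with exact 95% binomial intervals. *Clstn3* was at 95.6% in Control members against 46.4% in the reference, and *Rbfox3* at 8.82% against 16.4%; *Rbfox3*, *Syt1*, *Snap25*, *Grin1* and *Snhg11* are markers of the rule.

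Neuropeptide genes, whose products mark the functional classes of hypothalamic neurons, had 7 of 20 lower and 0 higher, with medians of -1.21 and -1.19. *Oxt*, *Sst*, *Avp* (vasopressin), *Crh* (corticotropin-releasing hormone), *Ghrh* (growth hormone-releasing hormone), *Gal* (galanin) and *Nts* (neurotensin) were the lower ones. A few barcodes can hold most UMIs of a peptide gene, so a summed level says little of the typical barcode. For *Avp* 1 barcode held 77.3% of the UMIs in the Control reference, whose level without its 3 top barcodes was 638 CPM, below the 1140 of all Control members and above the 144 of members without theirs. With the 3 top barcodes left out of every set, a larger part of the members than of the reference, 12 of 20 peptide genes were lower and 0 higher, and *Oxt* and *Crh* were not among the 12. *Hcrt*, the orexin precursor, had 1470 of its 1472 UMIs in Control members in 1 barcode, and 11247 of the 11350 in the SC300 reference in 1 barcode. The machinery of peptide processing and secretory granules had 0 of 11 past 2-fold in both libraries, with medians of 0.69 and 0.46 that were -0.32 and -0.53 when scaled to all UMIs and -0.03 and -0.28 with the median of ratios. *Resp18*, a granule protein, had 2952 and 2704 CPM against 3826 and 3599 (log2 -0.37 and -0.41), and *Scg2*, secretogranin, had 1.30 and 0.66.

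Of the markers of other cell types, those of mature oligodendrocytes had the highest summed level in members. In Control members haemoglobin genes came next. The 6 mature oligodendrocyte markers summed to 1684 CPM in Control members and 3075 in SC300 members, against 323 and 1049 in the reference, and 0 of the 6 were at 0. The most abundant was *Mbp*, myelin basic protein, with 321 and 754 UMIs (1112 and 2275 CPM against 128 and 236, log2 3.12 and 3.27), and 1 barcode held 46.7% of its UMIs in Control and 18.8% in SC300. Without *Mbp* the other 5 markers summed to 572 CPM in Control members against 196 in the reference, and to 799.6 against 814 in SC300. Of the 4 markers past the minimum 1 was higher and 0 lower, with medians of 1.15 and 0.01. At least 3 of the 6 markers were detected in 18 of 79 and 27 of 84 members, against 185 of 373 and 182 of 351 reference barcodes, which were deeper. Astrocyte markers summed to 305 and 516 CPM against 418 and 317, led by *Agt* with 39 and 69 UMIs, while *Aldh1l1* was at 0 in both. Microglia markers summed to 45.0 and 48.3 CPM against 97.5 and 59.1, led by *C1qa*, with *P2ry12* and *Cx3cr1* at 0 in Control and *Tmem119* at 0 in SC300. Their part in the ratios above was not tested.

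Oligodendrocyte precursor genes had 4 of 4 lower, ependymal genes 2 of 3, tanycyte genes 1 of 1, haemoglobin genes 1 of 5, microglia genes 1 of 3, and astrocyte, macrophage and endothelial genes 0 of 4, 0 of 1 and 0 of 2, with 0 higher in each. No gene of the mural and stromal lists reached the minimum. Haemoglobin genes, whose near-identical copies may share reads, summed to 1077 and 302 CPM in members against 1286 and 1026.

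Control and SC300 members were compared next, over the 2912 genes whose UMIs in both sets of members summed to at least 50. SC300 members were over 2-fold higher in 27 genes (0.927%) and over 2-fold lower in 26 (0.893%). The median log2 ratio of all genes was 0.02. Several lists that set members apart from reference, though not the neuropeptide list, had 0 genes past 2-fold here: oxidative phosphorylation (0 of 35, median 0.23), ribosomal proteins (0 of 67, 0.38), channels (0 of 15, 0.07), receptors (0 of 11, 0.23), adhesion (0 of 13, -0.02) and splicing (0 of 20, -0.04). Such counts are near the shares of 0.927% and 0.893% called among all genes. These lists leave out some genes of the same kind, such as *Grik1* and *Dlg3*, which were past 2-fold. With 1 pool of rats per group, a difference between the groups and one between these animals or libraries cannot be told apart, nor can fewer neurons of a type and less RNA in each.

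Neuropeptide genes were the list with most genes on both sides, with 4 of 15 higher and 6 lower in SC300. *Oxt* had 13 UMIs in Control members and 3349 in SC300 members (45.0 and 10105 CPM, log2 7.81), of which 98.6% were in 1 barcode. Without the 3 barcodes of each library with the most UMIs of the gene the log2 ratio was 2.23 (1.05 to 3.64), while in the reference barcodes it was 1.47 with all of them and 9.66 without the 3 top ones. *Agrp*, the orexigenic peptide of ARC neurons, had 96 and 335 UMIs (333 and 1011 CPM, log2 1.60, 1.27 to 1.95), in 8 of 79 and 12 of 84 members, against -0.34 in the reference. Its ratio rose to 4.08 without the 3 top barcodes. *Ghrh* had 19 UMIs in 1 Control barcode and 89 in 5 SC300 barcodes (2.03, with 1.53 in the reference), and *Penk*, proenkephalin, 31 and 118 UMIs in 9 and 11 barcodes (1.73, with 0.16). *Kiss1*, the kisspeptin precursor that the study followed, had 40 UMIs in 5 Control barcodes and 44 in 3 SC300 barcodes (-0.06, -0.71 to 0.59), with 77.5% and 95.5% in 1 barcode, against -1.50 in the reference. Several of these ratios thus rest on a handful of barcodes.

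On the lower side, *Hcrt* had 1472 and 5 UMIs (log2 -8.40), with 1470 of the Control UMIs in 1 barcode. Without that barcode 2 UMIs were left in Control against the 5 in SC300, too few to give a direction. *Pomc*, the precursor of melanocortins and beta-endorphin, had 242 and 5 UMIs (838 and 15.1 CPM, log2 -5.80), with 86.4% of the Control UMIs in 1 barcode and a reference ratio of -0.71 that was 0.17 without the 3 top barcodes. Without the 3 top barcodes it was -2.20, with an interval of -5.47 to 0.13 that held 0. *Avp* had 329 and 13 UMIs (1140 and 39.2 CPM, log2 -4.86, -5.79 to -4.07), and -2.90 without the 3 top barcodes. The reference ratio was -2.94, and -1.69 without its 3 top barcodes. *Cartpt*, the precursor of CART peptides, had 182 and 33 UMIs in 18 and 12 barcodes (-2.66, -3.24 to -2.12, and -2.09 without the top 3), while in the reference it was 0.68. *Tac3*, the neurokinin B precursor of ARC kisspeptin neurons, had 68 UMIs in 3 Control barcodes and 11 in 5 SC300 barcodes (-2.83, with -1.92 in the reference), and its ratio turned to 2.76, on 10 UMIs, for members above 50%. *Pdyn*, prodynorphin, had 56 and 31 UMIs in 14 and 12 barcodes (-1.05, with 0.74 in the reference). *Vgf* and *Pcsk2*, a granule protein and a prohormone convertase, were also lower, at 279 and 145 UMIs (-1.14) and at 81 and 42 (-1.15), with 0.22 and -0.23 in the reference.

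**Figure D5:**
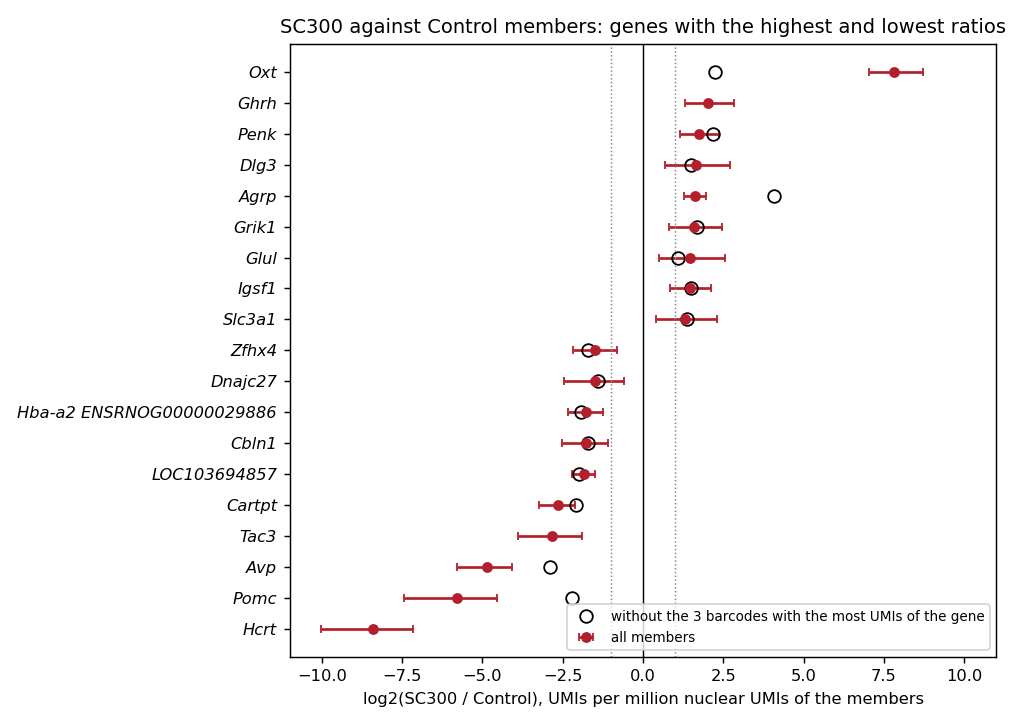
Log2 ratio of SC300 to Control members (x axis, CPM of nuclear UMIs) for the genes named among the 10 highest and 10 lowest (y axis), with exact 95% intervals of counting error, and open circles for the value without the 3 barcodes with the most UMIs of the gene, where both libraries keep a UMI. *Oxt* moved from 7.81 to 2.23 and *Pomc* from -5.80 to -2.20.

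Also among the 10 highest were *Dlg3*, a synaptic scaffold (12 and 43 UMIs, log2 1.64), *Grik1*, a kainate receptor subunit (17 and 59, 1.60), *Glul*, glutamine synthetase (12 and 38, 1.46), *Igsf1* (28 and 88, 1.45) and *Slc3a1*, a subunit of an amino acid transporter (14 and 40, 1.32). Their reference ratios lay between -0.07 and 0.31, with *Glul* lowest and *Slc3a1* highest. Among the lowest were *Cbln1*, a synaptic organiser (69 and 23 UMIs, -1.78), *Dnajc27* (37 and 15, -1.50) and *Zfhx4*, a transcription factor (66 and 27, -1.49), with 0.76, -0.06 and -0.41 in the reference. With at least 5 markers, which leaves 8 and 9 members, *Grik1*, *Cbln1*, *Dnajc27* and *Avp* turned, on 14 UMIs or fewer each. The haemoglobin genes *LOC103694857* (257 and 82 UMIs, -1.85) and *Hba-a2* of ENSRNOG00000029886 (116 and 39, -1.77) were spread over 75 and 60 of 79 Control members and 52 and 29 of 84 SC300 members. *Mbp* was higher in SC300 members (321 and 754 UMIs, 1.03), beside 0.88 in the reference.

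Barcodes above 35% with fewer than 3 of the neuronal markers, 215 in Control and 312 in SC300, were set against their own counterparts at or below 30%, 3555 and 3568. Of 11115 genes, 904 (8.13%) were over 2-fold higher and 744 (6.69%) lower in both libraries. Oxidative phosphorylation genes had 0 of 36 past 2-fold in either direction and medians of 0.37 and 0.68, where those in neuronal barcodes were -2.22 and -1.96. *Cox4i1* stood at 0.55 and 0.78 in these barcodes, against -1.31 and -1.37 in the neuronal ones. Ribosomal protein genes had 2 of 83 lower and 1 higher, with medians of -0.19 and 0.17. Channel genes were higher in both settings, with medians of 2.49 in Control and over 2 in SC300, and *Snhg11*, a marker used to divide the barcodes, had ratios of 6.82 and 6.30, from 1.47 and 1.55 CPM in the low-share barcodes. Receptor genes had 7 of 11 higher (medians 1.56 and 1.54), adhesion genes 8 of 16 (1.42 and 1.31) and splicing genes 3 of 22 (0.78 and 0.54), with 0 lower in each. Neuronal markers outside the rule moved with these lists, with 8 of 11 higher and medians of 2.32 and 2.61, and so did *Gad1*, at 4.68 and 4.34. The part of neuronal RNA in the channel, receptor, adhesion and splicing levels was not tested. Of 7645 genes tested in both settings, 1646 were higher in neuronal members and 797 in the other barcodes, and 394 were on both lists, which was 23.9% of the first and 49.4% of the second, where the other list took 10.4% and 21.5% of all 7645 genes. The lower genes numbered 1121 and 322 and shared 73, or 6.51% and 22.7%, beside 4.21% and 14.7% of all genes. These other barcodes mix many cell types, whose proportions differ above and below the threshold, and the difference between the settings was not tested.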

How the data were processed

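Single-cell 3′ RNA sequencing was performed by the authors with the 10x Chromium version 3 chemistry. Reads were aligned to the Ensembl96 transcriptome and counted with Cell Ranger (3.0.2 in the methods, 3.0.1 in the file headers), and the authors deposited raw counts of UMIs per gene and barcode, 32883 genes in each of 2 libraries. The rule of selection, the gene lists and the comparisons were chosen with earlier results of these data known, and so support nothing on their own. Levels are UMIs summed over barcodes per 1000000 UMIs outside the mitochondrial genome (CPM). The decision to treat 24 rows named AY172581 as mitochondrial was taken after the files were seen, as were the alternatives that undo it, a minimum of 1000 UMIs and, for members against reference, the 3 top barcodes of each gene left out.

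With 1 library per group no test was made. Log2 ratios carry exact conditional binomial intervals and shares Clopper-Pearson intervals, both at 95% and for counting error only. A count of 0 was replaced by 3 UMIs per library, a stand-in that the 95% interval can exceed. A gene counted as higher or lower past 2-fold (members against reference: in both libraries). Minimums were 100 UMIs over members and reference in each library and 50 UMIs over the members of both. Genes named are the rule and label markers, the Mt- genes, the 10 highest and 10 lowest ratios of each comparison, and the leading genes of each list by UMIs in members. Genes outside this rule are those past 2-fold listed with their list, *Kiss1*, *Slc32a1*, *Vgf*, *Pcsk2*, and *Mbp* between libraries. So are the 4 genes most abundant in the members of both libraries together. All were chosen after their values were seen. Some genes that this rule names are not reported here. Doublets were called with Scrublet in scanpy 1.11.5 and kept, at 70 of 4296 and 73 of 4379 barcodes. Calculations used scipy 1.17.1, pandas 2.3.3 and numpy 2.4.6 under Python 3.11.15, with matplotlib 3.10.9 for plots, and were checked on simulated counts. The retained depth was 51382276 UMIs in Control and 56390355 in SC300, of which the members held 288666 and 331416 nuclear UMIs, so that genes with few UMIs have wide intervals. The alternatives were other thresholds and marker rules, other scalings, a reference matched on depth, each barcode weighted alike, doublets left out, other minimums and the 3 top barcodes of each gene left out. The genome build of the gene table given with the files (GRCr8) differs from that of the counts, so no coordinates are given.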

Additional observations from a re-analysis of the deposited data

Results flagged for a closer look

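The ratio of members to reference was past 2-fold in opposite directions in Control and SC300 for 22 genes. The 2 flagged were *Th* and *Hcrt*, and the difference between the libraries was not tested. *Th*, tyrosine hydroxylase of dopamine neurons, had 0 UMIs in Control members against 518 in the reference. With 3 UMIs put in for the 0 the log2 ratio was -2.28, and the upper end of its interval was -1.98. In SC300 it had 19 UMIs in members against 179 in the reference (1.73, 0.96 to 2.41), with 68.4% of the 19 in 1 barcode. *Hcrt* had a log2 ratio of 9.15 in Control and -6.19 in SC300, with 99.86% of the Control members' UMIs and 99.09% of the SC300 reference's UMIs in 1 barcode each.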

How the results depend on the processing

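No paired analysis was possible because each group has 1 library and the groups share only 1 replicate number, and for the same reason no replicate could be left out. Members above 50% were 7.08% (Control) and 10.0% (SC300) of neuronal barcodes. With at least 5 of the 6 markers asked of all neuronal barcodes, members were 3.31% (8 of 242) and 3.86% (9 of 233). Genes higher and lower in members than in reference numbered 1085 and 664 with 5 markers, 109 and 107 of 490 genes against a reference matched on nuclear UMIs (12 and 19 barcodes), 327 and 2790 when scaled to all UMIs, 560 and 2280 with the median of ratios, 1110 and 1679 without the 3 barcodes of each set with the most UMIs of the gene (a larger part of the members than of the reference), and 166 and 715 of 1947 genes with a minimum of 1000 UMIs. Between SC300 and Control members, 13 of 843 genes were lower above 50%, 5 higher and 6 lower of 200 with 5 markers, 59 of 3523 higher with the AY172581 rows in the share, 57 higher without the 3 top barcodes per gene, 190 higher and 164 lower of 5922 with a minimum of 20 UMIs, and 6 and 10 of 1260 with a minimum of 100.

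Among ratios past 2-fold with intervals off 0, turned directions, as log2 ratios of members to reference, were *Egr1* -2.07 and *Hspa1b* -2.15 in SC300 and *Slc17a6* -0.14 in Control with 5 markers, *Dynlrb2* 0.18 in Control and *Hcrt* 1.09 in SC300 where neuronal markers led, *Sst* 1.03 in Control with the AY172581 rows in the share (1245 UMIs in place of 55), and *Syt4* -0.0069 in Control when scaled to all UMIs. The matched reference turned *Oxt* to 0.21 and 7.26, *Fos* to -0.74 in Control, and in SC300 *Sst* to 2.36, *Vamp2* to 0.083, *Tubb3* to 0.30 and *Hcrt* to 0.46. Without the 3 top barcodes *Oxt* turned to 1.15 in Control, *Hcrt* to 0.32 in SC300 and the haemoglobin median to 1.80 in SC300. For SC300 over Control members, *Hcrt* became 1.17 and *Tac3* 2.76 above 50%, and *Grik1* -0.21, *Avp* 0.79, *Cbln1* 0.64 and *Dnajc27* 0.38 with 5 markers. The cause was not tested. Ratios and list medians nearer 0 turned in 169 of the 3195 values recomputed for genes and lists, 34 of these when scaled to all UMIs and 28 with the median of ratios. List medians stayed within the counting error or spread used as the limit in 431 of 512 settings against the reference and in 162 of 167 between groups, named genes in 1256 of 2167 and 289 of 349, and shares of barcodes in 220 of 392. The oxidative phosphorylation and ribosomal medians stayed negative, and the channel, receptor, adhesion and splicing medians positive, under every alternative run for them. Not every list met every alternative, as a median needed 5 genes. Against the reference matched on nuclear UMIs, where 490 genes passed the minimum, 20 of 36 list medians could be had, and the rest were not compared at a like depth. In 76 gene settings a group had 0 UMIs and no value could be had.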

Other observations

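Members were also sorted by the transmitter markers detected in them, without thinning. Of the 79 Control members, 38 had only a GABAergic marker, 22 only a glutamatergic one, 9 both and 10 neither, and of the 84 SC300 members 55, 23, 2 and 4. Oxidative phosphorylation genes were low in both single classes, at 8261 CPM (GABAergic) and 7651 CPM (glutamatergic) for Control members and at 10781 and 8710 CPM for SC300 members, beside reference levels of 36401 and 35555 CPM. Channel genes in the same order stood at 3228, 3636, 3220 and 4512 CPM.

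Receptors of ovarian steroids were near the limit of detection. *Esr1*, the estrogen receptor alpha gene, had 3 UMIs in Control members and 2 in SC300 members, and *Pgr*, the progesterone receptor gene, 0 and 2.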
